A study of Mus musculus with 12 samples.

Results

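The 39 genes described here encode the proteins of the contractile apparatus of muscle: myosins, actins, tropomyosins, troponins, titin and the proteins of the Z-disc and M-band, calcium-handling proteins, natriuretic peptides and smooth muscle proteins that are also made in early heart muscle. They were chosen by symbol, each from the array's annotation with a single gene symbol, and all 39 were found among the 18193 genes measured. Each gene was read at 1 probe set, the one with the highest mean over all 12 arrays, and 18 of the 39 had further probe sets. Values are log2 signals after robust multi-array averaging (RMA), so a difference of 1 is a doubling.

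In striated muscle, thick filaments of myosin slide along thin filaments of actin, and the thin filament is switched on when calcium binds the troponin complex, which moves tropomyosin off the actin. Titin spans the sarcomere from the Z-disc to the M-band, and the sarcoplasmic reticulum releases and takes back the calcium of each beat. The embryonic heart is the first organ to contract, and early heart muscle co-expresses atrial, ventricular, skeletal and smooth muscle isoforms of these proteins before they are sorted into their adult cell types.

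The series measured cells of mouse embryos at E8.0, on a C57BL/6 and FVB mixed line carrying EYFP, after trypsin digestion and sorting on EYFP. The 4 groups of 3 arrays were EYFP-positive cells of ER71 mutants, EYFP-negative cells of ER71 mutants, EYFP-positive cells of ER71 wild types and EYFP-negative cells of ER71 wild types. ER71, also named Etv2, is an ETS transcription factor needed for blood and endothelium. The labels do not say what drives EYFP, what the mutant allele is, or whether a replicate is an embryo, a litter or a pool. The p-values therefore describe the spread of these arrays, an unknown part of which may be technical. The RNA of all 12 samples was amplified in more than 1 round, and no array measures how many cells gave it: in these bulk samples, fewer cells of a type and less RNA per cell cannot be told apart.

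Etv2, the mutated gene, read 7.40, 7.26 and 7.28 on the mutant positive arrays and 7.49, 7.43 and 7.24 on the mutant negative arrays. It read 10.72, 10.70 and 11.36 on the wild-type positive arrays and 7.58, 7.50 and 7.85 on the wild-type negative ones, so it was high only where the labels give a wild-type genotype and a positive sort. Whether its probe set lies in the part of the gene that the mutation alters is not given in the sources used here. Array medians lay between 6.98 and 7.06. A few arrays differed from the rest of their group in genes outside the muscle set. Eif2s3y, a Y-linked gene, was at 10.8 on wild-type positive array 1 and at 11.2 on wild-type negative array 1, and at 4.11 to 4.53 on the remaining 10. Xist, an RNA of female cells, was at 10.33 and 8.19 on the same arrays and at 13.36 to 13.98 on the remaining 10. The wild-type arrays numbered 1 thus held material that differed in sex from the rest of their groups. Mutant positive array 1 had the endoderm gene Afp at 11.98, where its group's arrays 2 and 3 had it at 5.02 and 4.03. Mutant negative array 2 had the embryonic globin gene Hbb-y at 11.55, where arrays 1 and 3 of its group had it at 5.01 and 4.71. The wild-type negative arrays had it at 10.80, 5.59 and 11.94. The 3′ minus 5′ difference of the actin control probe sets, which grows as RNA degrades or is shortened in amplification, was 1.40 to 1.62 in mutant positive cells, 1.87 to 2.72 in mutant negative cells, 1.54 to 3.05 in wild-type positive cells and 1.57 to 3.14 in wild-type negative cells, and its part in the results was not tested.

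Most muscle genes were highest in the EYFP-positive cells of the mutants and lay close together in the other 3 groups. Against wild-type positive cells, 26 of the 39 rose and 0 fell (limma, Benjamini-Hochberg adjusted p under 0.05 over all genes), where 4.23% of all genes rose and 3.74% fell. Against mutant negative cells, 27 of the 39 rose and 0 fell, where 3.07% of all genes rose and 2.29% fell. Both comparisons use the same 3 mutant positive arrays, so they are not independent. The median log2 difference of the 39 genes was 1.58 against wild-type positive cells and 1.54 against mutant negative cells, beside 0.01 and -0.03 over all genes. The rises ran from 1.62-fold for Des to 5.73-fold for Myl7 against wild-type positive cells, and from 1.74-fold for Des to 5.29-fold for Myl7 against mutant negative cells. All 3 mutant positive arrays lay above the 3 wild-type positive arrays in 31 of the 39 genes and in 13.8% of all genes, and above the 3 mutant negative arrays in 33 of the 39 and in 8.48% of all genes. They lay above all other 9 arrays in 29 of the 39 genes, and in 3.05% of all genes.

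**Figure D1:**
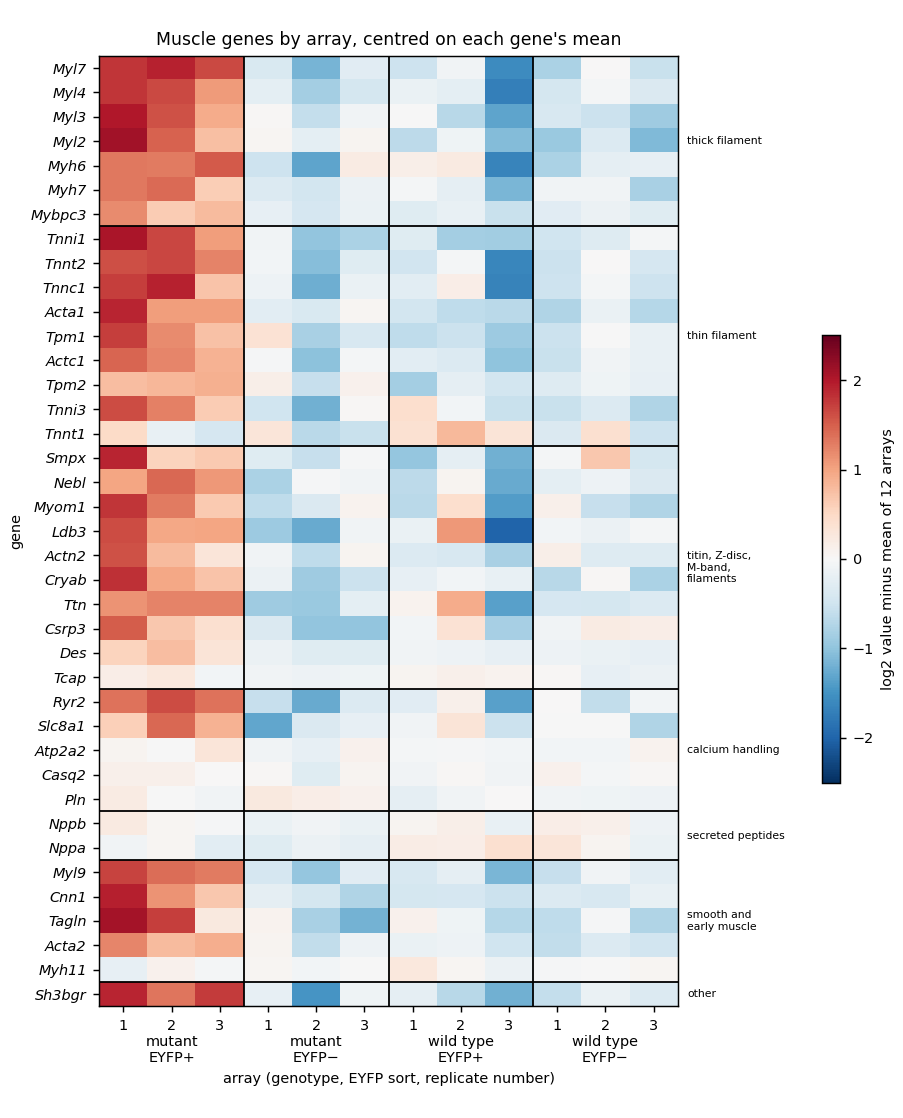
Log2 value of each of the 39 muscle genes (rows, grouped by role) on each of the 12 arrays (columns), minus that gene's mean over the 12 arrays; red is above and blue below the mean. The 3 mutant EYFP-positive arrays are red for most genes down to the smooth muscle group, while Tcap, Atp2a2, Casq2, Pln, Nppb, Nppa and Myh11 are pale throughout, and wild-type positive array 3 is the bluest column.

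By role, all 7 thick-filament genes and 8 of the 9 thin-filament genes rose in both comparisons. Of the 10 genes of titin, the Z-disc, the M-band and the associated filaments, 6 rose against wild-type positive cells and 5 against mutant negative cells. Of the 5 calcium-handling genes, 1 rose against wild-type positive cells and 2 against mutant negative cells, and of the 2 natriuretic peptides 0 rose in either. Of the 5 smooth and early muscle genes, 3 rose against wild-type positive cells and 4 against mutant negative cells. Sh3bgr, a small protein whose gene is active in heart and skeletal muscle, rose in both. In all, 23 genes rose in both comparisons, 3 passed against wild-type positive but not against mutant negative cells (Actn2, Smpx and Myom1), 4 passed against mutant negative but not against wild-type positive cells (Ttn, Tagln, Csrp3 and Slc8a1), and 9 passed in neither. The share of all genes that rose in both comparisons was not computed. Whether the size of a gene's rise differed between the 2 comparisons was not tested.

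**Figure D2:**
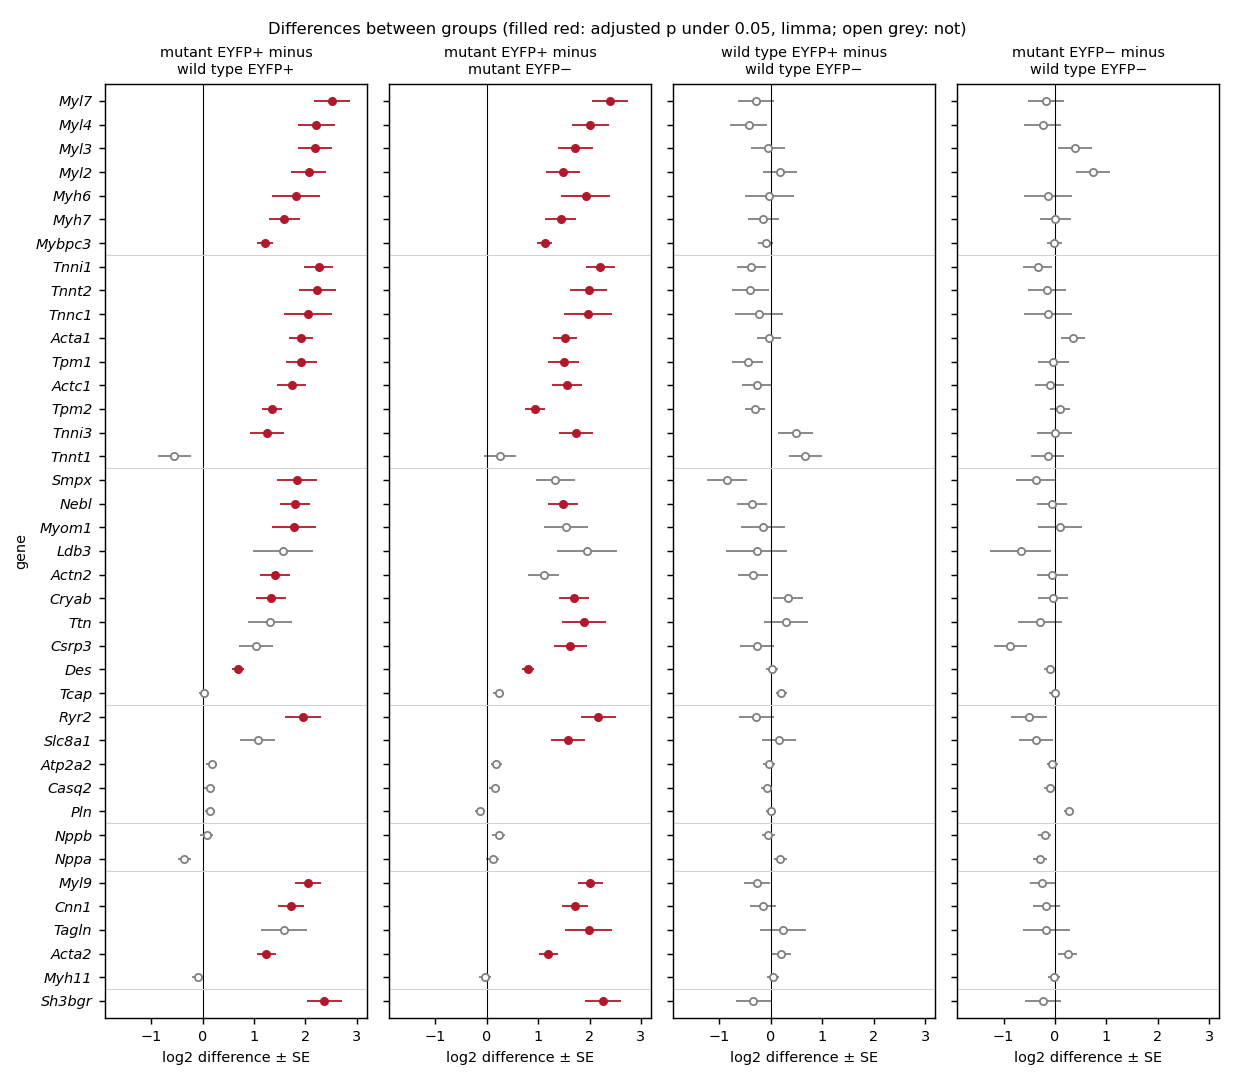
Log2 difference with its standard error for each muscle gene (rows, grouped by role) in 4 comparisons: mutant positive minus wild-type positive, mutant positive minus mutant negative, wild-type positive minus wild-type negative, and mutant negative minus wild-type negative cells (3 arrays a group). Filled red points passed an adjusted p of 0.05 in limma: 26 and 27 genes in the left pair of panels, all to the right of 0, and 0 in each of the right pair.

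The sequences just upstream of the start sites were available from RefSeq (GRCm38.p6) for 33 of the 39 genes, in 42 windows of 250 bases, since some genes have several start sites. They were searched on both strands for 5 motifs, each chosen because a factor of muscle or heart is known to bind it or because it marks a start site: the CArG box, bound by serum response factor; the MEF2 motif; CATTCC, bound by TEAD factors; GATAA, bound by GATA factors; and TATAAA. The CArG box was the motif whose share stood furthest from that of other genes: 9 of the 42 windows held it (21.4%), against 1.47% of all 32851 windows of the same length. The 8 genes holding it were Acta1, Actc1, Ldb3, Myl3, Myl7, Myl9, Myom1 and Nebl, and the same box of Ldb3 lies in 2 overlapping windows. It was present in 7 of the 27 genes with a window that rose in at least 1 of the comparisons and in 1 of the 6 that did not. CATTCC was in 26.2% of the windows, against 12.6% of all, GATAA in 35.7%, against 22.6%, MEF2 in 7.14%, against 2.92%, and TATAAA in 14.3%, against 12.4%. No match of a motif overlapped a match of another in a window. These are matches of letters, and binding was not measured.

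The windows of Myl7, the gene with the largest rise, of Myl9, whose rise had the smallest adjusted p, and of the cardiac and skeletal actins Actc1 and Acta1 are printed to show where the box lies. The window of Nppa, a heart gene that did not rise, is printed beside them and holds no such letters. These windows were picked for display: the box was in 7 of the 27 genes with a window that rose in at least 1 comparison. Ldb3, which passed in neither comparison, holds it too. Each sequence runs 5′ to 3′ on the gene's own strand and ends at the base before the start site, and the capitals mark the CArG box.
Myl7 (chr11:5898783-5899032, minus strand): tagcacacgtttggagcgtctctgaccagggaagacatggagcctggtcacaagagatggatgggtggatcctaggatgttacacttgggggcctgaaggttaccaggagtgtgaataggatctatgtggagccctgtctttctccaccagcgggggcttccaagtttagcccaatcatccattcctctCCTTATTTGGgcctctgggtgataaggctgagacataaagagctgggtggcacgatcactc
Myl9 (chr2:156775214-156775463, plus strand): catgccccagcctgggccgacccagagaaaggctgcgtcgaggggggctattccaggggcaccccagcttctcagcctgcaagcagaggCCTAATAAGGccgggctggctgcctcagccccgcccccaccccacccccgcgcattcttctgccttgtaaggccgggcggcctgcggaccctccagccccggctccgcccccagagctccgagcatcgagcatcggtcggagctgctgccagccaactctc
Actc1 (chr2:114052876-114053125, minus strand): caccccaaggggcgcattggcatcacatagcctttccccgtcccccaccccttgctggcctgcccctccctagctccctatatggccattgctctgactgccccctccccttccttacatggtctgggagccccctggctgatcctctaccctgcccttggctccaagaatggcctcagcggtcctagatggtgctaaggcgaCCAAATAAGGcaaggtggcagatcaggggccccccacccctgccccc
Acta1 (chr8:123894776-123895025, minus strand): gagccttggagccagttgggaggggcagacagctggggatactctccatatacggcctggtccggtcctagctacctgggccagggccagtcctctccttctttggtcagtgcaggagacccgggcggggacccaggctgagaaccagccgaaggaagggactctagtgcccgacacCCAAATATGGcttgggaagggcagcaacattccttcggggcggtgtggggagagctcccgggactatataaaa
Nppa (chr4:148000472-148000721, plus strand): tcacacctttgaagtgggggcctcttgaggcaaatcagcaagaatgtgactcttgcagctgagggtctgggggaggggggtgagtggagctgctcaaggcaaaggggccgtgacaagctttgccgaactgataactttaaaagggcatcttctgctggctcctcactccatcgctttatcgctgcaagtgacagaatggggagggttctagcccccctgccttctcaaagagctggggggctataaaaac
The box reads CCTTATTTGG in Myl7, 61 to 52 bases before the start, and CCTAATAAGG in Myl9, 161 to 152 bases before it. In Actc1 it reads CCAAATAAGG at 47 to 38 bases before the start, and in Acta1 it reads CCAAATATGG at 73 to 64 bases. Myl3 holds CCTTTTATGG, Nebl CCTAAATTGG, Myom1 CCATAAAAGG and Ldb3 CCATTTATGG.

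Among the thick-filament genes, Myl7, the atrial regulatory light chain, had the largest difference. It read 12.80, 12.93 and 12.66 in mutant positive cells, 10.62, 9.84 and 10.73 in mutant negative cells, 10.49, 10.91 and 9.43 in wild-type positive cells, with 10.22, 11.02 and 10.45 in wild-type negative cells. Every mutant positive array lay more than 1 log2 unit above every other array. The difference was 2.52 ± 0.35 log2 (SE, 3 arrays a group) against wild-type positive cells (limma, adjusted p = 0.00114) and 2.40 ± 0.35 against mutant negative cells (adjusted p = 0.00212).

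Myl4, the atrial essential light chain, read 13.01, 12.87 and 12.29 in mutant positive cells, 10.97, 10.36 and 10.78 in mutant negative cells, and 11.05, 10.97 and 9.52 in wild-type positive cells. It rose by 2.21 ± 0.36 log2 against wild-type positive cells and by 2.02 ± 0.36 against mutant negative cells. The ventricular light chains moved with it. Myl3, the ventricular and slow-muscle essential light chain, read 12.40, 11.99 and 11.34 in mutant positive cells, 10.44, 9.80 and 10.31 in mutant negative cells, and 10.39, 9.72 and 9.09 in wild-type positive cells, a rise of 2.18 ± 0.33 and 1.73 ± 0.33. Myl2, the ventricular regulatory light chain, read 12.07, 11.43 and 10.72 in mutant positive cells, 10.02, 9.73 and 10.02 in mutant negative cells, 9.31, 9.86 and 8.88 in wild-type positive cells, with 9.04, 9.62 and 8.87 in wild-type negative cells. In Myl2 the mutant negative arrays thus lay above the wild-type negative ones, by 0.75 ± 0.33, a difference that did not pass (adjusted p = 0.929), and the rise was 2.06 ± 0.33 against wild-type positive cells and 1.49 ± 0.33 against mutant negative cells.

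Both cardiac myosin heavy chains rose. Myh6, the alpha heavy chain, read 13.36, 13.34 and 13.57 in mutant positive cells, 11.52, 10.73 and 12.26 in mutant negative cells, and 12.18, 12.26 and 10.39 in wild-type positive cells. Wild-type positive array 3 lay far below the other two, and its rise of 1.81 ± 0.47 against wild-type positive cells (adjusted p = 0.0372) and 1.92 ± 0.47 against mutant negative cells (adjusted p = 0.0366) passed narrowly. Myh7, the beta heavy chain, read 12.87, 12.97 and 12.18 in mutant positive cells, 11.22, 11.08 and 11.40 in mutant negative cells, and 11.51, 11.32 and 10.41 in wild-type positive cells, a rise of 1.59 ± 0.30 and 1.44 ± 0.30. The 2 genes are neighbouring copies with near-identical stretches, and 2 further probe sets on the array match both: these rose by 2.25 ± 0.39 and 2.15 ± 0.20 against wild-type positive cells and by 2.16 ± 0.39 and 1.97 ± 0.20 against mutant negative cells, so a share of either gene's signal could come from the other. Mybpc3, the cardiac myosin-binding protein C, rose least of the thick-filament genes but varied little: 9.84, 9.30 and 9.46 in mutant positive cells, 8.46, 8.24 and 8.51 in mutant negative cells, 8.37, 8.47 and 8.11 in wild-type positive cells, for rises of 1.21 ± 0.15 (adjusted p = 0.000438) and 1.13 ± 0.15 (adjusted p = 0.00123).

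**Figure D3:**
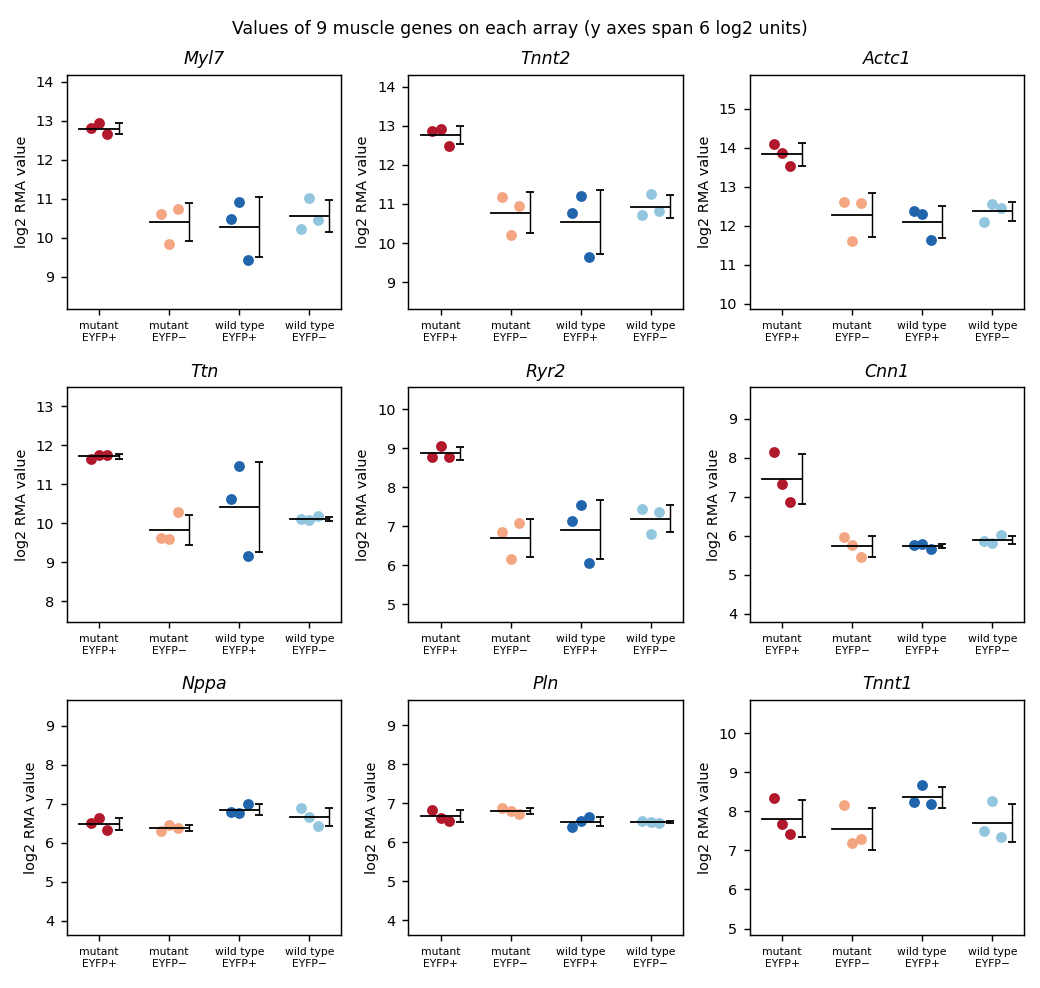
Log2 value of 9 muscle genes on each array, with the group mean (line) and SD (bar) of 3 arrays; every panel spans the same 6 log2 units. In Myl7, Tnnt2, Actc1, Ryr2, Cnn1 and Ttn the mutant EYFP-positive points lie above all others, with wild-type positive array 2 of Ttn (11.46) close below them, while in Nppa, Pln and Tnnt1 the mutant positive points do not stand above those of the other groups.

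Of the troponin genes, all but Tnnt1 rose in both comparisons. Tnnt2, cardiac troponin T, which binds the complex to tropomyosin, read 12.87, 12.93 and 12.50 in mutant positive cells, 11.19, 10.20 and 10.95 in mutant negative cells, and 10.77, 11.21 and 9.63 in wild-type positive cells. It rose by 2.23 ± 0.36 log2 against wild-type positive cells (adjusted p = 0.00297) and by 1.99 ± 0.36 against mutant negative cells (adjusted p = 0.00788). Tnni1, the slow skeletal inhibitory subunit that embryonic heart uses, read 12.20, 11.84 and 11.22 in mutant positive cells, 10.08, 9.18 and 9.37 in mutant negative cells, and 9.86, 9.32 and 9.30 in wild-type positive cells. Its rises of 2.26 ± 0.28 (adjusted p = 0.000486) and 2.21 ± 0.28 (adjusted p = 0.000979) were the largest of the thin filament.

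Tnni3, the inhibitory subunit of adult heart, read 9.28, 8.91 and 8.28 in mutant positive cells, 7.14, 6.45 and 7.67 in mutant negative cells, and 8.06, 7.57 and 7.09 in wild-type positive cells. Its lowest mutant positive array lay just above its highest wild-type positive array, and the rise of 1.25 ± 0.34 against wild-type positive cells passed narrowly (adjusted p = 0.0437). It was lost once positive and negative arrays of the same number were treated as correlated (adjusted p = 0.0553). Against mutant negative cells Tnni3 rose by 1.73 ± 0.34. Tnnc1, the calcium-binding subunit of slow and cardiac muscle, read 11.45, 11.65 and 10.45 in mutant positive cells, 9.59, 8.51 and 9.56 in mutant negative cells, and 9.47, 9.90 and 8.06 in wild-type positive cells, with rises of 2.04 ± 0.47 (adjusted p = 0.0208) and 1.96 ± 0.47 (adjusted p = 0.0314).

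Tnnt1, slow skeletal troponin T, was the thin-filament gene that did not follow. It read 8.34, 7.67 and 7.43 in mutant positive cells, 8.17, 7.19 and 7.30 in mutant negative cells, 8.25, 8.67 and 8.18 in wild-type positive cells, with 7.49, 8.26 and 7.34 in wild-type negative cells. The groups overlapped, and its difference between mutant and wild-type positive cells was -0.55 ± 0.32 (95% interval -1.26 to 0.15, adjusted p = 0.351). Between wild-type positive and wild-type negative cells it was 0.67 ± 0.32 (adjusted p = 0.295), which passed once positive and negative arrays of the same number were taken as pairs (adjusted p = 0.00938).

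Both sarcomeric actins rose. Actc1, cardiac alpha-actin, read 14.10, 13.87 and 13.52 in mutant positive cells, 12.61, 11.62 and 12.59 in mutant negative cells, and 12.37, 12.30 and 11.63 in wild-type positive cells, rises of 1.73 ± 0.28 and 1.56 ± 0.28. Acta1, skeletal alpha-actin, which embryonic heart also makes, read 10.55, 9.70 and 9.70 in mutant positive cells, 8.39, 8.28 and 8.71 in mutant negative cells, and 8.20, 8.02 and 7.98 in wild-type positive cells. It rose by 1.92 ± 0.23 (adjusted p = 0.000426) and 1.52 ± 0.23 (adjusted p = 0.0028). The CArG boxes printed above for these genes lie close before their start sites. Of the tropomyosins, which run along the actin filament, Tpm1 read 12.83, 12.29 and 11.84 in mutant positive cells, 11.47, 10.30 and 10.70 in mutant negative cells, and 10.47, 10.56 and 10.18 in wild-type positive cells. It rose by 1.92 ± 0.30 (adjusted p = 0.00223) against wild-type positive cells and by 1.50 ± 0.30 (adjusted p = 0.0128) against mutant negative cells, and Tpm2 rose by 1.34 ± 0.20 and 0.93 ± 0.20. In Tpm2 the mutant positive arrays at 10.21, 10.25 and 10.31 lay close together, above 9.56, 8.86 and 9.53 in mutant negative cells and 8.57, 9.21 and 8.97 in wild-type positive cells.

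Ttn, the giant spring protein of the sarcomere, read 11.65, 11.76 and 11.76 in mutant positive cells, 9.63, 9.60 and 10.28 in mutant negative cells, 10.61, 11.46 and 9.18 in wild-type positive cells, with 10.10, 10.08 and 10.18 in wild-type negative cells. The 3 mutant positive arrays lay above all others, but wild-type positive array 2 came close to them. Ttn rose against mutant negative cells (1.89 ± 0.43, adjusted p = 0.0243) and did not pass against wild-type positive cells (1.31 ± 0.43, adjusted p = 0.0877). Without wild-type positive array 2 it passed, as did Csrp3 and Ldb3 (adjusted p from 0.00949 to 0.0424). Csrp3, a LIM protein of the Z-disc, read 10.50, 9.66 and 9.38 in mutant positive cells, 8.63, 8.01 and 8.01 in mutant negative cells, 8.93, 9.35 and 8.16 in wild-type positive cells, with 8.91, 9.20 and 9.16 in wild-type negative cells. It rose by 1.63 ± 0.33 against mutant negative cells (adjusted p = 0.0129), where its mutant negative arrays also lay below the wild-type negative ones by 0.87 on the log2 scale (-0.87 ± 0.33, adjusted p = 0.929), and its difference from wild-type positive cells was 1.03 ± 0.33 (adjusted p = 0.0798).

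Actn2, Myom1 and Smpx passed against wild-type positive cells but not against mutant negative cells. Actn2, the alpha-actinin that crosslinks actin at the Z-disc, read 8.64, 7.83 and 7.35 in mutant positive cells, 6.96, 6.41 and 7.12 in mutant negative cells, and 6.71, 6.65 and 6.23 in wild-type positive cells. It rose by 1.41 ± 0.30 against wild-type positive cells (adjusted p = 0.0138) and its 1.11 ± 0.30 against mutant negative cells missed the threshold (adjusted p = 0.0567), which it passed with same-numbered arrays paired (adjusted p = 0.0313). Myom1, the M-band crosslinker, read 8.36, 7.87 and 7.22 in mutant positive cells, 5.95, 6.22 and 6.67 in mutant negative cells, and 5.91, 7.01 and 5.19 in wild-type positive cells. It rose by 1.78 ± 0.43 against wild-type positive cells (adjusted p = 0.0268), with 1.54 ± 0.43 against mutant negative cells (adjusted p = 0.0669). Smpx, a small protein of striated muscle, rose by 1.83 ± 0.39 against wild-type positive cells, with 1.34 ± 0.39 against mutant negative cells (adjusted p = 0.0792, and 0.0134 with same-numbered arrays paired). Its values were 8.43, 7.07 and 7.17 in mutant positive cells, 6.22, 5.95 and 6.48 in mutant negative cells, 5.55, 6.30 and 5.32 in wild-type positive cells, with 6.47, 7.19 and 6.08 in wild-type negative cells, so that wild-type negative array 2 overlapped the mutant positive cells.

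Nebl, nebulette, which ties actin to the cardiac Z-disc, rose in both comparisons, at 10.17, 10.61 and 10.27 in mutant positive cells, 8.39, 9.15 and 9.08 in mutant negative cells, and 8.53, 9.24 and 7.91 in wild-type positive cells (1.79 ± 0.29 and 1.48 ± 0.29). Cryab, a small heat shock protein that protects desmin and titin, read 11.44, 10.59 and 10.33 in mutant positive cells, 9.47, 8.74 and 9.08 in mutant negative cells, and 9.42, 9.55 and 9.43 in wild-type positive cells, rises of 1.32 ± 0.29 and 1.69 ± 0.29. Des, the intermediate filament desmin, had the smallest rise that passed and a small spread: 9.34, 9.56 and 9.10 in mutant positive cells, 8.64, 8.48 and 8.47 in mutant negative cells, 8.68, 8.64 and 8.58 in wild-type positive cells, for 0.69 ± 0.11 (adjusted p = 0.00326) and 0.80 ± 0.11 (adjusted p = 0.00189). Ldb3, a PDZ-LIM protein of the Z-disc, had the widest spread within groups of the 39 genes (SD 0.850). Its wild-type positive arrays ran over 7.96, 9.20 and 6.13, and neither its 1.56 ± 0.59 against them (adjusted p = 0.143) nor its 1.95 ± 0.59 against mutant negative cells (adjusted p = 0.0943) passed. Tcap, the titin cap, stayed between 7.42 and 7.90 on all 12 arrays, and its difference from wild-type positive cells was 0.02 ± 0.10 (95% interval -0.20 to 0.25).

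The calcium-handling genes were divided. Ryr2, the calcium release channel of the sarcoplasmic reticulum, read 8.78, 9.05 and 8.77 in mutant positive cells, 6.85, 6.15 and 7.08 in mutant negative cells, 7.14, 7.54 and 6.06 in wild-type positive cells, with 7.43, 6.81 and 7.35 in wild-type negative cells. Each mutant positive array lay more than 1 log2 unit above all others, and Ryr2 rose by 1.95 ± 0.34 against wild-type positive cells (adjusted p = 0.00504) and by 2.17 ± 0.34 against mutant negative cells (adjusted p = 0.0035). Slc8a1, the sodium-calcium exchanger of the cell membrane, read 8.64, 9.48 and 8.92 in mutant positive cells, 6.75, 7.68 and 7.85 in mutant negative cells, and 7.96, 8.36 and 7.51 in wild-type positive cells. It rose by 1.58 ± 0.33 against mutant negative cells (adjusted p = 0.0173), while its 1.07 ± 0.33 against wild-type positive cells did not pass (adjusted p = 0.0765). Casq2, the calcium-storing calsequestrin of the heart, and Pln, which inhibits the calcium pump, lay below the lowest array median of 6.98 on all 12 arrays, at 5.92 to 6.35 and 6.40 to 6.88. Their differences between mutant and wild-type positive cells were 0.14 ± 0.11 (95% interval -0.10 to 0.38) and 0.14 ± 0.10 (95% interval -0.09 to 0.36).

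Atp2a2, the calcium pump of the sarcoplasmic reticulum that many cell types also make, gave an answer that depended on the probe set. At its brightest probe set it read 13.05, 12.97 and 13.28 in mutant positive cells, 12.89, 12.77 and 13.08 in mutant negative cells, and 12.93, 12.95 and 12.90 in wild-type positive cells, a difference of 0.18 ± 0.11 (adjusted p = 0.401). At a probe set with a mean of 10.3 it read 11.33, 11.46 and 11.30 in mutant positive cells, 9.57, 9.66 and 10.00 in mutant negative cells, and 10.29, 9.95 and 9.93 in wild-type positive cells. There all 3 mutant positive arrays lay above the mutant negative and wild-type positive arrays, which overlapped each other, and the rise was 1.31 ± 0.14 against wild-type positive cells (limma over all probe sets, adjusted p = 0.000252) and 1.62 ± 0.14 against mutant negative cells (adjusted p = 0.000341). At a probe set with a mean of 11.9 the difference was 0.98 ± 0.26 (adjusted p = 0.0664) and 1.15 ± 0.26 (adjusted p = 0.0454). Which transcripts of Atp2a2 the probe sets detect is not given in the sources used here.

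Other genes also differed between their probe sets. The 39 genes had 79 probe sets of their own, and in the fit over all probe sets 40 of these rose against wild-type positive cells and 37 against mutant negative cells, with 0 falling in either. At the brightest probe set 24 of the 39 genes rose in each comparison of that fit. Of all 18193 genes, 1141 and 748 passed there in either direction. The share over all probe sets was not computed. In that fit Atp2a2, Ldb3, Myh6, Slc8a1 and Ttn did not pass against wild-type positive cells at the brightest probe set but did at another. For Ttn the probe sets with means of 7.9, 7.5 and 6.6 rose by 1.95 ± 0.38, 1.90 ± 0.29 and 1.38 ± 0.27 (adjusted p = 0.0152, 0.00344 and 0.0139). The second probe set of Ldb3 read 8.88, 9.09 and 8.47 in mutant positive cells, 7.49, 7.57 and 7.57 in mutant negative cells, and 7.42, 7.58 and 7.44 in wild-type positive cells. It varied far less than the brightest one and rose by 1.33 ± 0.15 (adjusted p = 0.00039) and 1.27 ± 0.15 (adjusted p = 0.00143). In the other direction, Acta2, Des, Ryr2 and Sh3bgr rose at their brightest probe set and at none of their dimmer ones, in both comparisons. The dimmer probe sets of Des, Ryr2, Sh3bgr and Acta2 had means of 4.94 to 6.24.

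**Figure D4:**
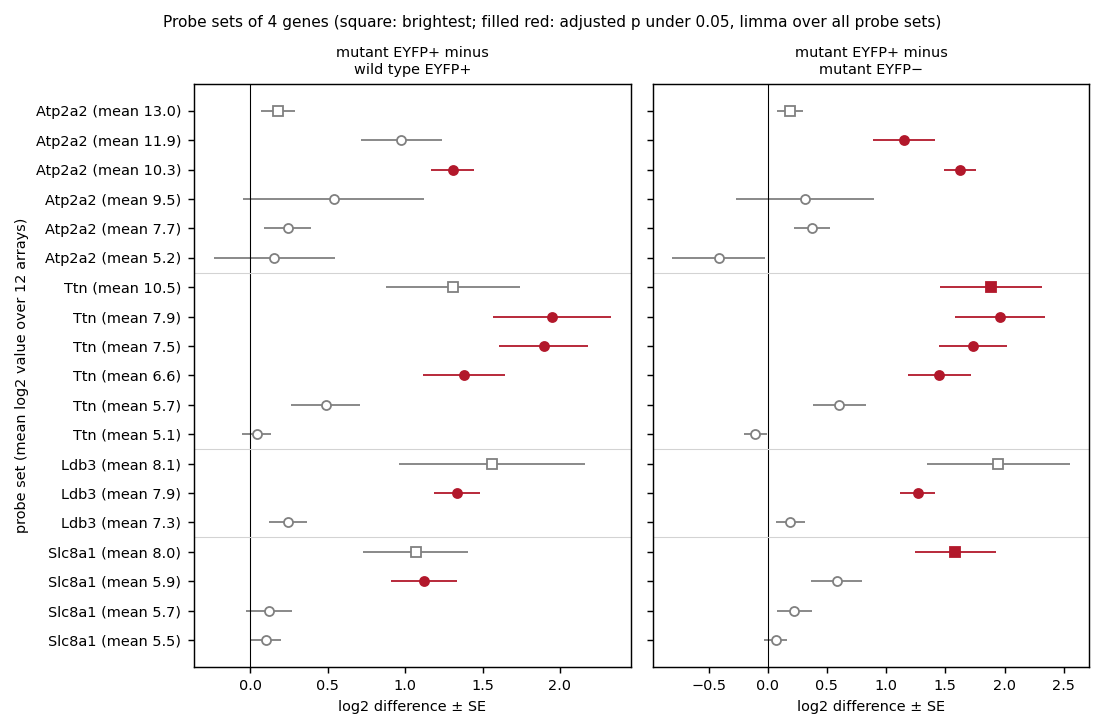
Log2 difference with its standard error at each probe set of Atp2a2, Ttn, Ldb3 and Slc8a1 (rows, ordered by mean log2 value), for mutant positive minus wild-type positive cells (left) and minus mutant negative cells (right); squares are the brightest probe set of a gene and filled red points passed an adjusted p of 0.05. The brightest probe set of Atp2a2 lies at 0.18 and 0.19 while dimmer ones reach 1.31 and 1.62.

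The natriuretic peptides, hormones secreted by heart muscle, did not rise. Nppa read 6.50, 6.64 and 6.34 in mutant positive cells, 6.30, 6.46 and 6.38 in mutant negative cells, 6.79, 6.75 and 7.00 in wild-type positive cells, with 6.90, 6.66 and 6.42 in wild-type negative cells. All but 1 array lay below the array medians, and Nppa was the only one of the 39 genes with its mutant positive arrays all below the wild-type positive ones (-0.36 ± 0.13, adjusted p = 0.136), an order found in 11.8% of all genes. Nppb lay between 7.26 and 7.69 on all arrays, with differences of 0.08 ± 0.12 and 0.23 ± 0.12. Sh3bgr read 11.87, 11.30 and 11.71 in mutant positive cells, 9.75, 8.47 and 9.86 in mutant negative cells, and 9.74, 9.27 and 8.75 in wild-type positive cells. It rose by 2.37 ± 0.35 (5.16-fold, adjusted p = 0.00149) and 2.26 ± 0.35 (4.80-fold, adjusted p = 0.00272), close behind Myl7.

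Of the genes named for smooth muscle, Myl9, its regulatory light chain, had the smallest adjusted p of the 39 genes in both comparisons. It read 10.66, 10.36 and 10.26 in mutant positive cells, 8.55, 7.99 and 8.69 in mutant negative cells, and 8.56, 8.75 and 7.83 in wild-type positive cells, rises of 2.04 ± 0.25 (adjusted p = 0.000419) and 2.02 ± 0.25 (adjusted p = 0.000827). Cnn1, calponin, an actin-binding protein, read 8.15, 7.33 and 6.88 in mutant positive cells and lay between 5.45 and 6.01 on the other 9 arrays, a range that includes the arrays' 25th percentile of 5.62 to 5.69. It rose by 1.71 ± 0.26 and 1.72 ± 0.26. Acta2, smooth muscle alpha-actin, read 13.45, 13.01 and 13.13 in mutant positive cells, 12.28, 11.61 and 12.09 in mutant negative cells, and 12.06, 12.09 and 11.72 in wild-type positive cells, rises of 1.24 ± 0.18 and 1.20 ± 0.18. Tagln, transgelin, another actin-binding protein, read 10.62, 10.28 and 8.79 in mutant positive cells, 8.63, 7.74 and 7.37 in mutant negative cells, and 8.65, 8.45 and 7.83 in wild-type positive cells. It rose by 1.98 ± 0.45 against mutant negative cells (adjusted p = 0.026), and its 1.58 ± 0.45 against wild-type positive cells missed the threshold (adjusted p = 0.0565). That difference passed without mutant positive array 3 (adjusted p = 0.0063) or with same-numbered arrays treated as correlated (adjusted p = 0.0414). Myh11, the heavy chain of mature smooth muscle, lay between 6.22 and 6.68 on all arrays (-0.10 ± 0.12 against wild-type positive cells, 95% interval -0.36 to 0.16).

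The 2 remaining comparisons asked whether muscle genes differ between sorted fractions of wild types and between the negative fractions of the genotypes. In wild types, 0 of the 39 genes passed between positive and negative cells (limma), and 1 had an unadjusted p under 0.05 (Smpx, -0.86 ± 0.39), where 8.24% of all genes passed and 18.9% had an unadjusted p under 0.05. The median log2 difference was -0.10, beside -0.02 over all genes. Between mutant and wild-type negative cells, 0 of the 39 genes passed and 3 had an unadjusted p under 0.05 (Myl2, Csrp3 and Pln), where 0% of all genes passed and 5.22% had an unadjusted p under 0.05. Pln, at 6.88, 6.80 and 6.74 in mutant negative cells against 6.55, 6.53 and 6.50 in wild-type negative cells, was 0.28 ± 0.10 higher (adjusted p = 0.929). These counts do not show that the groups were alike: for Myl7 the wild-type positive minus negative difference was -0.29 ± 0.35, with a 95% interval of -1.06 to 0.49.

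The difference between positive and negative cells was then compared between genotypes by an interaction term, mutant minus wild type. Of the 39 genes, 15 had a larger difference in mutants and 0 a smaller one, where 0.973% of all genes had a larger and 1.61% a smaller one. The median interaction was 1.59 log2, beside -0.02 over all genes, and all 15 genes were among the 23 that rose in both mutant positive comparisons. The interaction contains the mutant positive minus mutant negative difference, so this overlap is no independent result. Myl7 had the largest, 2.69 ± 0.50 log2 (adjusted p = 0.0151), from a positive minus negative difference of 2.40 in mutants and -0.29 in wild types. Tnni1 (2.59 ± 0.40, adjusted p = 0.00416) and Myl9 (2.29 ± 0.35, adjusted p = 0.00418) had the smallest adjusted p. The others were Myl4, Mybpc3, Tnnt2, Actc1, Acta1, Tpm1, Tpm2, Cnn1, Des, Ryr2, Nebl and Sh3bgr. With positive and negative arrays of the same number taken as pairs, 23 genes passed, the additional 8 being Myl3, Myh7, Acta2, Tagln, Csrp3, Cryab, Slc8a1 and Smpx (adjusted p from 0.012 to 0.0227). The count over all genes grew as well, from 469 of 18193 in the main fit to 797. The count also changed when single arrays were left out, which gives a weaker test. Over all genes it was then 299 to 486. For the 39 genes it was 8 with any of 4 arrays left out (numbers 1 and 2 of the mutant positive, number 2 of the mutant negative and number 1 of the wild-type negative group), 9 without wild-type positive array 3, 6 without wild-type negative array 2 and 5 without wild-type negative array 3. Without mutant positive array 3 or wild-type positive array 2, 5 further genes passed each time, Csrp3 in both cases (adjusted p from 0.0376 to 0.0494 and from 0.0297 to 0.0493). Only Myl7, Myl9, Mybpc3 and Tnni1 passed in every alternative run.

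Single calls also changed when an array was left out, and so did the counts over all genes. Against wild-type positive cells 1450 genes passed, and 1032 to 1589 with any 1 array left out. Against mutant negative cells 975 passed, and 677 to 1000 with any 1 array left out. Of the 26 calls against wild-type positive cells, 19 passed in every alternative run. The other 7 (Myh6, Tnni3, Tnnc1, Actn2, Cryab, Smpx and Myom1) were each lost without wild-type positive array 3 (adjusted p from 0.0514 to 0.136). Myh6, Tnni3, Tnnc1 and Myom1 were also lost without mutant positive array 1 (0.0692 to 0.147) or 2 (0.0693 to 0.103), Myh6 without mutant positive array 3 (0.0973), Myom1 without wild-type positive array 1 (0.0742) and Tnni3 without wild-type positive array 2 (0.0961). Myh6 and Tnni3 were lost as well without mutant negative array 1 or any 1 of the wild-type negative arrays (0.0508 to 0.0639). Of the 27 calls against mutant negative cells, 14 passed in every alternative. Leaving out mutant positive array 2 lost 9 of them (Myl2, Myh6, Myh7, Tnnc1, Ttn, Tpm2, Tagln, Slc8a1 and Nebl, adjusted p from 0.0526 to 0.12), and leaving out mutant negative array 2 lost 7 (Myl2, Myh6, Myh7, Tnnc1, Ttn, Tagln and Csrp3, 0.0527 to 0.136). Without mutant positive array 1 or mutant negative array 1, 6 calls were lost each time (0.0568 to 0.0944 and 0.0512 to 0.0894). Without mutant negative array 3, 5 were lost, Tpm1 and Csrp3 among them (0.0519 to 0.104). Without mutant positive array 3, 3 were lost (Myh6, Ttn and Tpm2, 0.0551 to 0.107). Myh6 was also lost without wild-type negative array 2 or 3 (0.0566 and 0.0552). Other differences passed once an array was left out: Actn2 against mutant negative cells without mutant positive array 3 (0.0192), Myom1 and Ldb3 against mutant negative cells without wild-type positive array 2 or 3 (0.00874 to 0.0351), and Tagln and Slc8a1 against wild-type positive cells without mutant negative array 1 (0.0428 and 0.046), beside the gains of Ttn, Csrp3, Ldb3 and Tagln given above. No difference that passed turned its sign in any alternative.

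The muscle genes varied together within groups. The pooled SD within groups had a median of 0.422 log2 over the 39 genes, beside 0.183 over all genes. Wild-type positive array 3 was the lowest of its group in 33 of the 39 genes, against 34.7% of all genes, mutant negative array 2 in 30 of 39, against 37.0%, and mutant positive array 3 in 27 of 39, against 37.1%. The mean of the 39 genes was 10.33, 10.09 and 9.78 on the mutant positive arrays, 8.85, 8.42 and 8.87 on the mutant negative arrays, 8.86, 9.03 and 8.26 on the wild-type positive arrays, and 8.77, 8.95 and 8.72 on the wild-type negative arrays. The lowest mutant positive array thus lay well above the highest of the others. Among the 23 genes that rose in both comparisons, the deviations of the 12 arrays from their group means had a median Pearson r of 0.58 over the 253 pairs of genes, 238 of them above 0, a description of arrays that share their RNA.

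Other contractile genes had smaller median differences. Of 24 further sarcomere and Z-disc genes, 6 rose against wild-type positive cells and 6 against mutant negative cells, with 0 falling in either, and their median differences were 0.34 and 0.41 log2. Synpo2l, a Z-disc protein of heart and skeletal muscle, rose by 0.89 ± 0.21 and 1.42 ± 0.21. Pdlim3, an actinin-binding Z-disc protein, rose by 0.70 ± 0.14 and 0.94 ± 0.14. Myl1 and Tnni2, of fast skeletal muscle, rose against wild-type positive cells (0.82 ± 0.19 and 0.68 ± 0.16), and Ankrd1, a stretch-responsive titin-binding protein, rose against mutant negative cells (1.79 ± 0.34). Of 19 further calcium and channel genes, 4 rose against wild-type positive cells and 1 rose and 1 fell against mutant negative cells. Trdn, triadin, which couples calsequestrin to the release channel, rose by 1.77 ± 0.41 against wild-type positive cells, at 7.09, 7.42 and 6.81 in mutant positive cells, against 6.24, 5.29 and 4.48 in wild-type positive cells. Hrc, a calcium-binding protein of the same store, rose by 0.83 ± 0.14 and 0.96 ± 0.14. Of 12 muscle energy genes, 3 rose against wild-type positive cells and 4 against mutant negative cells, led by Pgam2, the muscle phosphoglycerate mutase (1.80 ± 0.30 and 1.82 ± 0.30).

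A separate list of 11 smooth muscle and actin-binding genes moved in both directions. Against wild-type positive cells 1 rose (Actg2, enteric smooth muscle actin, 0.60 ± 0.14) and 1 fell (Tagln2, a transgelin of many tissues, -0.82 ± 0.15), while 5 rose against mutant negative cells and 6 rose in wild-type positive against wild-type negative cells, where 4.63% of all genes rose. Tagln2 read 10.88, 10.79 and 10.80 in mutant positive cells, against 12.05, 11.53 and 11.35 in wild-type positive cells. Mylk, myosin light chain kinase, had the lowest estimates of the list, -1.06 against wild-type positive and -1.20 against mutant negative cells. It passed in neither, at 8.46, 8.01 and 9.43 in mutant positive cells, against 9.57, 9.68 and 10.27 in mutant negative cells. Cald1, Cnn2 and Csrp1, broadly expressed actin-binding proteins, rose in the positive cells of both genotypes against their own negative cells: by 0.78, 1.55 and 1.40 in mutants and by 0.63, 0.78 and 1.04 in wild types.

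Transcription factors that act on these genes were mostly higher in mutant positive cells too. Of 17 measured, 11 rose and 1 fell against wild-type positive cells, and 10 rose and 0 fell against mutant negative cells. Srf, serum response factor, which binds the CArG box, read 10.58, 10.43 and 10.52 in mutant positive cells, 9.94, 9.20 and 9.76 in mutant negative cells, and 9.56, 9.74 and 9.22 in wild-type positive cells (1.00 ± 0.19 and 0.88 ± 0.19). Its cofactor Myocd, myocardin, read 10.48, 10.75 and 11.01 in mutant positive cells, against 9.24, 9.46 and 7.71 in wild-type positive cells, a rise of 1.94 ± 0.37. In mutant negative cells Myocd read 9.49, 9.22 and 9.86. Its wild-type negative arrays, at 9.85, 9.78 and 10.19, lay above the wild-type positive ones, a difference that did not pass. Gata4, Tbx5, Hand2 and Nkx2-5, factors of the heart fields, rose in both comparisons, Hand2 by 1.57 ± 0.16 and 1.59 ± 0.16. The MEF2 family was divided: Mef2c rose against mutant negative cells (1.72 ± 0.18) but also rose in wild-type positive against wild-type negative cells (1.03 ± 0.18), and Mef2a fell in mutant against wild-type positive cells (-1.72 ± 0.26). Mef2a read 10.01, 10.25 and 10.05 in mutant positive cells, against 12.42, 11.50 and 11.56 in wild-type positive cells.

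**Figure D5:**
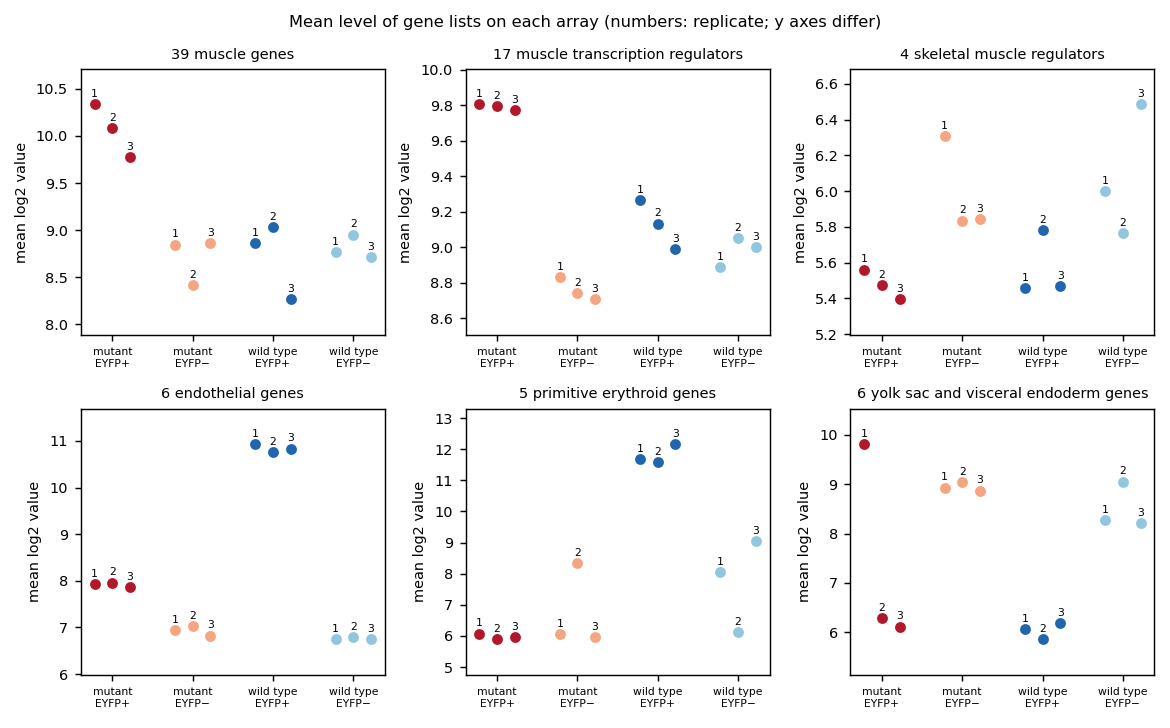
Mean log2 value of 6 gene lists on each array (numbers are replicates, and the y axes differ). The 39 muscle genes and 17 muscle transcription regulators are highest on the 3 mutant EYFP-positive arrays, the endothelial and primitive erythroid genes on the 3 wild-type EYFP-positive arrays, and the endoderm genes are high on mutant positive array 1 but not on the other 2.

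Markers of other cells that the sorted fractions could hold also differed between the groups, and their part in the muscle results was not tested. The mean of 6 endothelial genes was 7.87 to 7.96 in mutant positive cells, against 10.8 to 10.9 in wild-type positive cells, and 5 of the 6 fell. Against mutant negative cells, where that mean was 6.83 to 7.04, all 6 had higher estimates and 2 rose: Kdr, a VEGF receptor, by 2.57 ± 0.16 and Tek, the angiopoietin receptor, by 2.04 ± 0.28. The mean of 5 primitive erythroid genes was 5.89 to 6.07 in mutant positive cells, against 11.6 to 12.2 in wild-type positive cells, and all 5 fell. In mutant negative cells it was 6.06, 8.33 and 5.97 on arrays 1, 2 and 3, so array 2 stood apart. Between the mutant fractions 0 of the 5 passed (limma), with 0 at an unadjusted p under 0.05, in a group whose spread came largely from that array. Of all 18193 genes, 2816 had an unadjusted p under 0.05 there. The mean of 4 neural genes was 7.26 to 8.66 in mutant positive cells, against 11.05 to 11.14 in mutant negative cells, and all 4 fell. In wild-type positive cells it was 7.46 to 8.48, against which 1 of the 4 rose, Crabp2, a retinoic acid-binding protein, by 0.92 ± 0.24 (limma, adjusted p = 0.0411), and 0 fell. Of 8 cardiomyocyte regulators, 7 rose against wild-type positive cells and 5 against mutant negative cells, with list means of 9.76 to 9.84 in mutant positive cells, 8.54 to 8.65 in mutant negative cells, and 8.39 to 8.84 in wild-type positive cells. All 8 were among the transcription factors counted above, so these calls are no independent result. The 4 skeletal muscle regulators Myod1, Myf5, Myog and Myf6 did not pass in any comparison. Myf5, Myog and Myf6 read at most 5.17 on the mutant positive arrays, below the arrays' 25th percentile of at least 5.62, and Myod1 lay at 6.92 to 7.05, near the array medians. The mean of 6 endoderm genes was 9.81 on mutant positive array 1 and 6.29 and 6.12 on arrays 2 and 3, beside 8.87 to 9.04 in mutant negative and 5.86 to 6.19 in wild-type positive cells. In neither comparison did an endoderm gene pass (limma), and 2 of the 6 had an unadjusted p under 0.05 in each. Of all 18193 genes, 4053 had such a p against wild-type positive cells and 2816 against mutant negative cells. When array 1 was left out, 22 of the 39 genes rose against wild-type positive cells and 21 against mutant negative cells.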

How the data were processed

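The authors deposited log2 values per probe set for 12 Affymetrix arrays, which the submitters' processing notes name as RMA output. Its version and settings were not given in the sources used here. RMA removes background, equalises the distributions of the arrays and summarises the probes of a probe set, and it compresses differences of dim probe sets. Precision is limited by 3 arrays a group. The 64 control probe sets were left out of the tests. Of 45037 others, 34945 had 1 gene symbol in the platform annotation, 932 several and 9160 none. Each of 18193 genes was read at its brightest probe set. limma 3.58.1 (R 4.3.3) fitted the 4 groups together, with empirical Bayes moderation, two-sided tests and Benjamini-Hochberg adjustment over all genes of a comparison. Intervals are 95%. Every one of the 39 genes is accounted for, and those past the threshold are given with array values and differences. The values of the wild-type negative arrays are printed for some of these genes only. The genes and lists were chosen with earlier results of these data known, so the counts are descriptions of a chosen set. 10 listed genes were not measured under a single symbol. The labels do not say that replicate numbers pair arrays, but deviations of same-numbered positive and negative arrays correlated across genes (r = 0.554, 0.403 and 0.413 in mutants, 0.19, 0.102 and 0.202 in wild types), so they were taken as pairs in an alternative, the replicate block. Within a genotype and for the interaction it fitted an effect of each pair. Between genotypes, where no pair spans the groups, it used a shared correlation of the pairs (0.272) instead. Further alternatives changed the probe set choice, normalization, filter, moderation, arrays and groups fitted. The script was tested on simulated data. Promoter windows and start sites come from RefSeq, GRCm38.p6.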

Additional observations from a re-analysis of the deposited data

Results flagged for a closer look

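For 15 of the 39 genes the positive minus negative difference was larger in mutants than in wild types by an interaction test, and these are listed with that excess in log2 units. Among thick-filament genes it was 2.69 for Myl7, 2.45 for Myl4 and 1.23 for Mybpc3. Among thin-filament genes it was 2.59 for Tnni1, 2.38 for Tnnt2, 1.95 for Tpm1, 1.83 for Actc1, 1.56 for Acta1 and 1.24 for Tpm2. Nebl and Des, of the Z-disc and the filaments around it, had 1.85 and 0.78. Ryr2, the calcium release channel, had 2.45, and Sh3bgr had 2.60. Myl9 and Cnn1, named for smooth muscle, had 2.29 and 1.88. By the same test 0 of the 39 genes had a smaller difference in mutants. Among the 15, the adjusted p (limma) ran from 0.00416 for Tnni1 to 0.0414 for Nebl. Groups of 3 arrays are too small for the test of single outlying arrays used on larger groups.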

How the results depend on the processing

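Between mutant and wild-type positive cells, 26 of the 39 genes rose in the main analysis, 19 to 28 with any 1 array left out and 20 to 29 under the other 10 alternatives. Against mutant negative cells 27 rose, 18 to 29 with any 1 array left out and 22 to 29 under the others. Leaving out arrays gives fewer samples and so a weaker test. The interaction count of 15 was the least stable: 5 to 19 with any 1 array left out, 9 when all probe sets were tested without choosing 1 per gene, 6 without both wild-type arrays numbered 1, and 23 with the replicate block that pairs positive and negative arrays. Over all genes the interaction count was 469 in the main analysis and 299 to 486 with any 1 array left out. Under those other alternatives it was 339, 337 and 797, in that order. The replicate block also let 1 gene pass between wild-type positive and negative cells, Tnnt1, against 0 otherwise. Over all genes 2160 passed there, against 1499 in the main analysis. It changed 4 further calls: Tnni3 was lost and Tagln gained against wild-type positive cells (adjusted p = 0.0553 and 0.0414), and Actn2 and Smpx were gained against mutant negative cells (0.0313 and 0.0134). Fitting the 2 groups of a comparison alone was not possible for the interaction, which needs all 4. The cause of the changed counts under the probe set and pairing alternatives was not tested. 0 of the called differences changed sign. Dim genes such as Casq2, Pln and Myh11, below the lowest array median of 6.98 on all arrays, bear no statement on absence of change.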
